A study of Mus musculus with 6 samples.

Results

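The clustered protocadherin genes were examined in long RNA sequencing of whole mouse brain, in TRMT1L knockout (KO) and wild-type (WT) animals. The members are the protein-coding genes of the GENCODE M21 annotation whose symbols start with Pcdha, Pcdhb or Pcdhg. They number 57 of the 55450 genes counted, with 14 in the α cluster, 22 in the β cluster and 21 in the γ cluster. TRMT1L is a relative of the tRNA methyltransferase TRMT1, and the study asked how its loss changes brain RNA. Each genotype had 3 libraries, described as biological replicates, made from total RNA longer than 200 bp. The labels name the genotype and the tissue, and give no strain, knockout allele, age, sex, litter or batch.

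Clustered protocadherins are cell-surface proteins of the cadherin superfamily, and in the brain they give single neurons distinct surface identities. Each α and γ gene has its own promoter and its own large variable exon, which encodes the extracellular, transmembrane and proximal cytoplasmic parts and is spliced to constant exons shared by the whole cluster. Each β gene carries its coding sequence in a single exon and uses no constant exon. Most of these promoters are chosen in a stochastic manner in each neuron, with CTCF, cohesin and DNA methylation taking part, while the C-type genes at the 3′ ends of the α and γ clusters are used more broadly. The proteins bind like to like between cells and serve dendrite self-avoidance, axon arrangement and neuronal survival.

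All 57 members lie on the plus strand of chromosome 18 (GRCm38). The α cluster ran from 36930184 to 37187661, the β cluster from 37264938 to 37524479 and the γ cluster from 37661793 to 37841873. A read that falls in exons of several genes on one strand was not counted for any of them, so the counts of α and γ members come from their unshared sequence, mostly the variable exons, and not from the shared constant exons. Some members, such as ENSMUSG00000102206.5 and Pcdhgb4, also have unshared exonic sequence outside the variable exon. The exonic sequence that no other same-strand gene shares was a median of 46.4% of the exonic length in α members, 55.4% in γ members and 100% in β members. All β members have a single-exon transcript, and Pcdhb2, Pcdhb6, Pcdhb8 and Pcdhb22 also have an annotated transcript with 2 exons. The symbol Pcdha11 is carried by 2 genes in this annotation, ENSMUSG00000007440.10, which RefSeq names Pcdha10, and ENSMUSG00000102206.5, and both were kept.

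Trmt1l, the targeted gene (chromosome 1, 151428542 to 151458161), was measured at 35.1, 33.0 and 35.2 CPM (counts scaled to library size) in WT libraries 1 to 3 and at 2.68, 3.0 and 2.93 CPM in KO libraries 1 to 3. The groups did not overlap, the KO mean was 8.33% of the WT mean, and the log2 fold change was −3.58 (SE 0.0813, adjusted p = 6.95e-10 in edgeR's quasi-likelihood test). Counts in genes ranged from 31201119 to 36145961 per library, and the members together took 29532 to 34621 counts, or 0.0934% to 0.0966% of them. The share of reads dropped because they fell in several genes, taken against the counts in genes, was 1.84% ± 0.00451 in WT libraries and 1.99% ± 0.0346 in KO libraries (SD, n = 3 each), with every KO library above every WT library. Summed markers of neurons, astrocytes, oligodendrocytes, oligodendrocyte precursors, microglia, vessels, immature neurons, serotonergic neurons and olfactory epithelium overlapped between the groups, and no marker was at 0 in all libraries. Choroid plexus markers alone did not overlap, with sums of 335.5 to 390.2 CPM in WT and 393.9 to 470.6 CPM in KO. Most of each sum was Ttr, the transthyretin gene, at 263 to 317 CPM in WT and 320.3 to 384 CPM in KO. Taken singly, most of the other choroid plexus markers overlapped between the groups. The tables do not tie the dropped reads to genes, and the part of either difference in the values below was not tested. The p-values measure the spread between these 6 libraries.

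In the brains of both genotypes, transcripts of the γ cluster were the most abundant of the 3 clusters, and the C-type genes Pcdhgc3, Pcdhgc5 and Pcdhac2 led the list. Levels are compared between genes as CPM per kb of unshared exon, averaged over the 6 libraries. Pcdhgc3, a C-type γ gene, had the highest level at 25.1, with single libraries between 22.8 and 27.5. Pcdhgc5 followed at 18.9 (18.0 to 19.9 over the libraries), and Pcdhac2, the C-type α gene that serotonergic neurons use for axon tiling, came next at 14.4 (14.01 to 14.7). The library ranges of these 3 genes did not overlap each other or that of the next member. The order of Pcdhgc3 and Pcdhgc5 rests on the annotated length, since the unshared lengths of 3380 and 4606 bp include retained-intron transcripts and the mean CPM without length were 84.9 and 87.1. From Pcdhga11, at 11.2 (10.5 to 12.7), down to Pcdha4, at 0.905, each member's library range overlapped that of its neighbour in the order, so neighbours there are not told apart, while members far apart in the order did not overlap.

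The C-type genes were not uniformly high. Pcdhgc4, which is required for the survival of some neurons, was measured at 6.88 CPM per kb, with libraries between 6.55 and 7.56. Pcdhac1 was measured at 3.19 CPM per kb, with libraries between 2.74 and 3.57. The 5 C-type genes together held 26.1% of the members' summed CPM, the 12 γ A genes 27.1%, the 22 β genes 25.7%, the 6 γ B genes 13.9% and the 12 other α genes 7.23%. Per kb of unshared exon, the median level was 7.93 CPM in γ A genes, 6.87 in γ B genes, 2.46 in the α genes other than the C-type and 2.37 in β genes.

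At the lower end, Pcdhb1, the first β gene, was measured at 0.155 CPM per kb (0.0778 to 0.235 over the libraries). The counts of Pcdhb1, the fewest of any member in total, were 8, 11 and 20 in WT and 7, 14 and 22 in KO. Pcdha1, the first α gene, stood above it at 0.459 CPM per kb (0.312 to 0.562), and Pcdha4 at 0.905 (0.581 to 1.17). These ranges did not overlap between the 3 genes. The Pcdha4 value rests on 494 bp, since an exon of the read-through gene model Gm42416 covers the rest of its variable exon.

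Levels were higher toward the 3′ end of each cluster. The Spearman correlation between a gene's order in its cluster and its CPM per kb was 0.79 over 14 α genes, 0.80 over 22 β genes and 0.60 over 21 γ genes, given as a description because the genes share the same 6 libraries. In the α cluster the level went from 0.459 for Pcdha1 through 3.27 for Pcdha9 and 4.22 for Pcdha12 to 14.4 for Pcdhac2. The rise was not smooth, since ENSMUSG00000102206.5, between Pcdha9 and Pcdha12, was at 2.49. Pcdhac1, between Pcdha12 and Pcdhac2, was at 3.19. In the β cluster the highest levels were those of Pcdhb17, at 4.89 (4.64 to 5.31), and Pcdhb16, at 4.82 (4.49 to 5.31), whose ranges overlapped. In the γ cluster the gene with the lowest level was Pcdhga1, its first gene, at 2.66 (2.36 to 2.91).

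**Figure D1:**
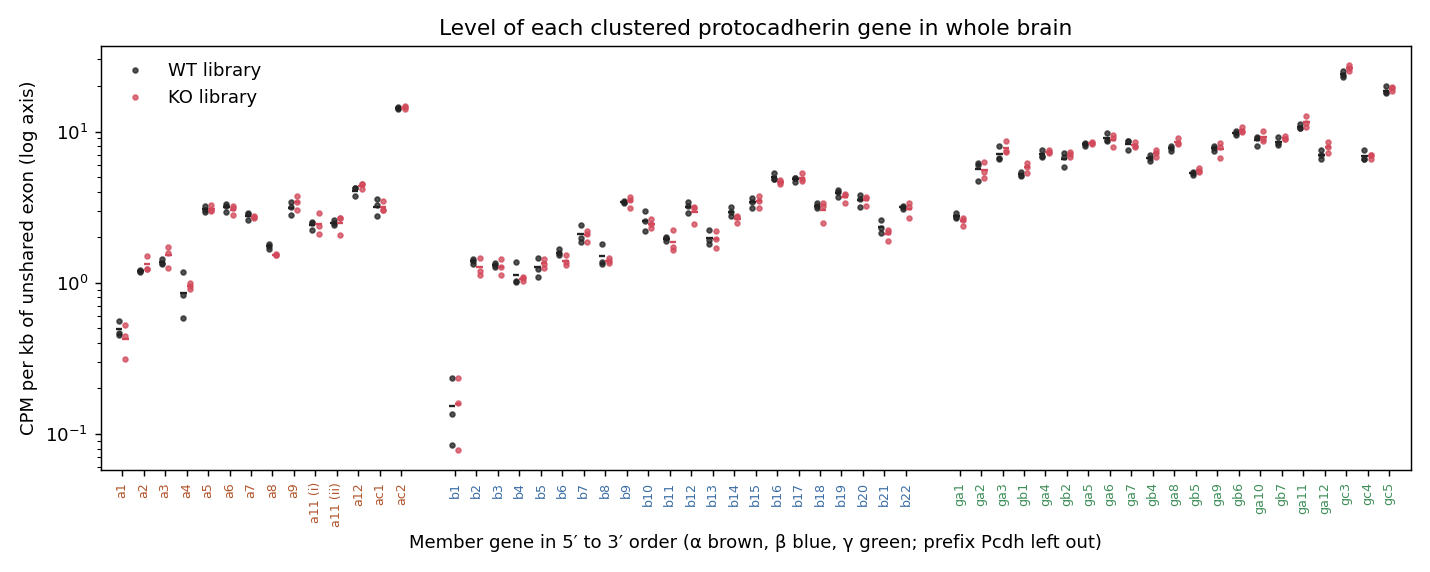
Level of each of the 57 members in CPM per kb of unshared exon on a log axis, in 5′ to 3′ order within the α, β and γ clusters, with 1 point per library and a dash at each group's mean (n = 3), where a11 (i) and a11 (ii) are the Pcdha11 genes in the order given in the text. The C-type genes Pcdhgc3, Pcdhgc5 and Pcdhac2 are the highest, Pcdhb1 is the lowest, and WT and KO points of a gene lie close together.

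Loss of TRMT1L was accompanied by no member that passed the adjusted threshold. All 57 members passed the filter on low counts, and 0 had an adjusted p under 0.05 in edgeR's quasi-likelihood test, against 0.00942% of the 21237 genes tested. The smallest adjusted p among members was 0.589. At an unadjusted p under 0.05, 1 member was higher in KO (4.54% of all genes tested) and 0 were lower (3.38% of all genes). The DESeq2 Wald test gave 0 members with an adjusted p under 0.05, but it assigned no adjusted p to 55 of the 57. In bulk tissue, fewer cells of a type and less RNA per cell cannot be told apart.

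The estimated differences were small in both directions. The log2 fold changes of KO over WT ran from −0.20 in Pcdha1 to 0.16 in Pcdhga12, with 27 above 0 and 30 below, beside 50.1% above and 49.9% below among all genes. The median over the members was −0.00074, against 0.00013 over all genes tested. The 95% confidence interval lay within 0.5 of 0 on the log2 scale for 54 of the 57 members. The exceptions were Pcdha1, Pcdha4 and Pcdhb1, the 3 members with the lowest levels, and the interval of Pcdhb1 ran from −0.91 to 1.06. For those 3 genes the intervals leave room for a change of 0.5 or more. The coefficient of variation within groups had a median of 7.73% over the members and 8.38% over all genes tested, and counting error alone gives a median of 5.08% for the members.

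**Figure D2:**
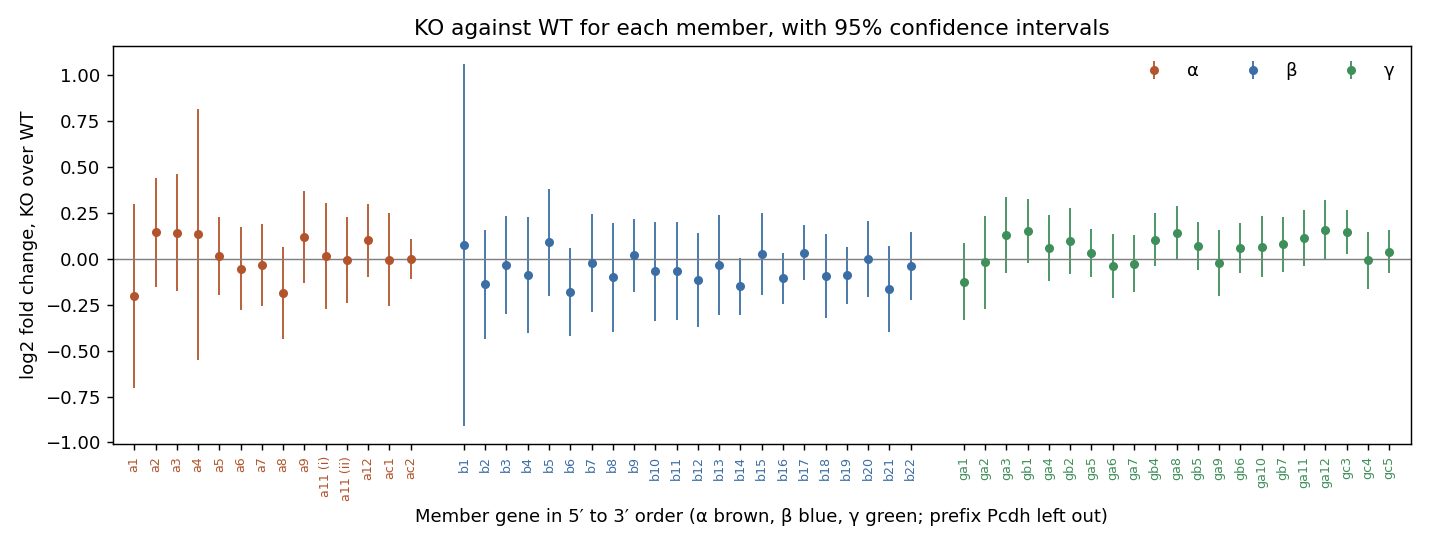
Log2 fold change of KO over WT for each member with its 95% confidence interval from edgeR's quasi-likelihood fit, in 5′ to 3′ order and coloured by cluster. Only the interval of Pcdhgc3 leaves out 0, and the intervals of Pcdha1, Pcdha4 and Pcdhb1 are the widest.

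Among the C-type genes, Pcdhgc3 (ENSMUSG00000102918.1, 37806364 to 37841873 with the constant exons) was the member with the smallest unadjusted p. It was measured at 85.3, 77.2 and 79.4 CPM in WT libraries 1 to 3 and at 85.2, 89.4 and 92.9 CPM in KO libraries 1 to 3, with means of 80.6 ± 4.21 and 89.2 ± 3.81 (SD, n = 3 each). KO libraries 2 and 3 lay above all WT libraries, and KO library 1 lay just under WT library 1, so the groups overlapped. The log2 fold change was 0.14 (SE 0.0544, 95% interval 0.026 to 0.26), with an unadjusted p of 0.0214 and an adjusted p of 0.589 in edgeR's quasi-likelihood test. The unadjusted edgeR p was 0.0643 after a correction for GC content, 0.0885 without WT library 2, 0.0616 without WT library 3 and 0.0829 without KO library 3. The unadjusted p was also above 0.05 with the replicate block and GC correction together, and under 0.05 in every other alternative. Over all alternatives the log2 fold change of Pcdhgc3 ran from 0.10 to 0.19. Choroid plexus markers, whose sums were mostly Ttr and did not overlap, had positive log2 fold changes in 8 of 8 genes. Ttr had 317, 263 and 300.1 CPM in WT and 384, 372 and 320.3 CPM in KO (log2 fold change 0.29, edgeR adjusted p = 0.576). The part of these markers in the Pcdhgc3 difference was not tested.

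The other C-type genes had values that interleaved between the genotypes. Pcdhac2 (ENSMUSG00000102697.1) was measured at 44.3, 42.8 and 43.6 CPM in WT and at 43.7, 42.4 and 44.5 CPM in KO. Its log2 fold change was −0.00071 (SE 0.0509, 95% interval −0.11 to 0.11, edgeR adjusted p = 0.999), and its standard error was the smallest of any member. Pcdhgc5 was measured at 83.5, 91.5 and 82.8 CPM in WT and at 90.6, 88.9 and 85.3 CPM in KO, and the log2 fold change was 0.039 (95% interval −0.078 to 0.16). WT library 2 held the highest Pcdhgc5 value and the other WT libraries the lowest ones. Pcdhgc4 was measured at 26.3, 22.9 and 22.8 CPM in WT and at 24.3, 22.9 and 24.3 CPM in KO (log2 fold change −0.0078), and Pcdhac1 at 9.12, 7.02 and 8.36 CPM in WT and 8.95, 7.78 and 7.75 CPM in KO (−0.0037). After the GC correction the log2 fold changes were −0.075 for Pcdhac2, −0.010 for Pcdhgc5, −0.051 for Pcdhgc4 and −0.024 for Pcdhac1.

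In the γ cluster, whose A and B genes differ by sequence family and interleave along the chromosome, 15 of 21 log2 fold changes were above 0 and the median was 0.067, or 0.032 after a correction for GC content. All 6 γ B genes were above 0 (median 0.088), as were 7 of 12 γ A genes (median 0.046). Summed over the cluster, the members took 576.1, 569.6 and 567.7 CPM in WT and 593.7, 613.3 and 591.4 CPM in KO. Each KO sum was above each WT sum, with a ratio of the means of 1.05. None of the 21 genes passed the adjusted threshold, and the bounds of their 95% intervals lay between −0.33 and 0.34.

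Pcdhga12 (ENSMUSG00000102428.1) had the largest positive log2 fold change. It was measured at 32.0, 30.0 and 34.1 CPM in WT and at 35.8, 38.8 and 32.6 CPM in KO, so that KO library 3 fell inside the WT range. The log2 fold change was 0.16 (SE 0.0739, edgeR unadjusted p = 0.0550, adjusted p = 0.628). Over the alternatives the unadjusted edgeR p of Pcdhga12 ran from 0.0116 without KO library 3 to 0.216 without KO library 2, where the log2 fold change was 0.095, and it was 0.0495 after the GC correction. Pcdhga8 and Pcdhgb5 were the γ members whose groups did not overlap, and they are named here after their values were seen. Pcdhga8 was measured at 20.1, 18.6 and 19.6 CPM in WT and at 21.1, 22.6 and 20.7 CPM in KO (log2 fold change 0.14, edgeR adjusted p = 0.628). Pcdhgb5 was measured at 24.5, 24.8 and 23.8 CPM in WT and at 25.0, 26.6 and 25.2 CPM in KO (0.071, edgeR adjusted p = 0.795). On the negative side, Pcdhga1 had 9.45, 8.84 and 8.72 CPM in WT and 7.66, 8.73 and 8.41 CPM in KO, and the log2 fold change was −0.12. Pcdhga6 had 23.0, 25.6 and 22.5 CPM in WT and 20.8, 23.7 and 24.8 CPM in KO. Both of these overlapped between the groups.

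In the β cluster, 17 of 22 log2 fold changes were below 0 and the median was −0.066, or −0.029 after the GC correction. The summed CPM was 244.7, 257.5 and 246.8 in WT and 247.6, 220.04 and 247.9 in KO. KO library 2 alone was low, and the other KO libraries lay within the WT range. In KO library 2, 3 of 22 β genes were above their own 6-library mean, against 13 in KO library 1, 14 in KO library 3 and 10 to 19 in the WT libraries. Without KO library 2 the β median was 0.0086, with 11 genes above 0 and 11 below.

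Pcdhb14 (ENSMUSG00000044043.4, 37447656 to 37456350) had the smallest p of the β genes. It was measured at 25.4, 24.1 and 27.4 CPM in WT and at 23.8, 21.5 and 23.9 CPM in KO, and the groups did not overlap. The log2 fold change was −0.15 (SE 0.0711, edgeR unadjusted p = 0.0569, adjusted p = 0.628), and it was −0.074 after the GC correction. Pcdhb16 was measured at 25.4, 27.8 and 25.2 CPM in WT and at 24.9, 23.5 and 24.4 CPM in KO, again with no overlap (log2 fold change −0.11, edgeR adjusted p = 0.706). Its log2 fold change was −0.061 after the GC correction. The third β gene without overlap was Pcdhb6, named after its values were seen, at 6.27, 5.71 and 5.86 CPM in WT and 4.95, 5.70 and 5.12 CPM in KO (−0.18, edgeR adjusted p = 0.714). The gap between WT library 2 and KO library 2 of Pcdhb6 was far smaller than the spread within either group. Pcdhb19 had 26.4, 29.1 and 28.3 CPM in WT and 27.6, 24.0 and 27.1 CPM in KO, and Pcdhb17 had 23.1, 22.8 and 21.6 CPM in WT and 22.5, 21.9 and 24.7 CPM in KO. Pcdhb5, the β gene with the largest positive log2 fold change (0.090, and −0.0035 to 0.20 with 1 library left out), had 3.88, 5.14 and 4.38 CPM in WT and 4.69, 4.46 and 5.06 CPM in KO. These 3 genes overlapped between the groups.

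The α cluster had 7 log2 fold changes above 0 and 7 below, with a median of 0.0077 that was −0.0029 when libraries were scaled by total counts. The summed CPM was 121.9, 115.0 and 122.5 in WT and 123.5, 120.8 and 118.6 in KO, and the groups overlapped. Pcdha8 was measured at 4.12, 4.47 and 4.35 CPM in WT and at 3.83, 3.77 and 3.76 CPM in KO, with no overlap (log2 fold change −0.19, SE 0.115, edgeR adjusted p = 0.719). Pcdha2 was measured at 3.02, 3.0 and 2.95 CPM in WT and at 3.08, 3.09 and 3.74 CPM in KO, also with no overlap (0.14, edgeR adjusted p = 0.819), and KO library 3 alone stood well above the rest. Pcdha1, with the lowest log2 fold change of all members, had 1.154, 1.12 and 1.40 CPM in WT and 0.777, 1.31 and 1.11 CPM in KO, and the groups overlapped. With 1 library left out, the log2 fold change of Pcdha1 ran from −0.37 without KO library 2 to −0.022 without KO library 1. Pcdha12 had 10.5, 9.22 and 10.5 CPM in WT and 11.1, 10.2 and 11.2 CPM in KO (0.10), with overlap. The gene ENSMUSG00000102206.5 had 11.02, 11.5 and 11.9 CPM in WT and 12.4, 12.3 and 9.57 CPM in KO, with KO values on both sides of the WT range. Pcdha4 had 0.412, 0.287 and 0.577 CPM in WT and 0.489, 0.446 and 0.470 CPM in KO, with all KO values inside the WT range.

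Over the 3 clusters, groups that did not overlap were seen in 3 members higher in KO, against 7.46% of all genes tested, and in 4 members lower in KO, against 6.97% of all genes. These counts are 5.26% and 7.02% of the 57 members. Both shares are close to, or below, those of all genes tested.

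**Figure D3:**
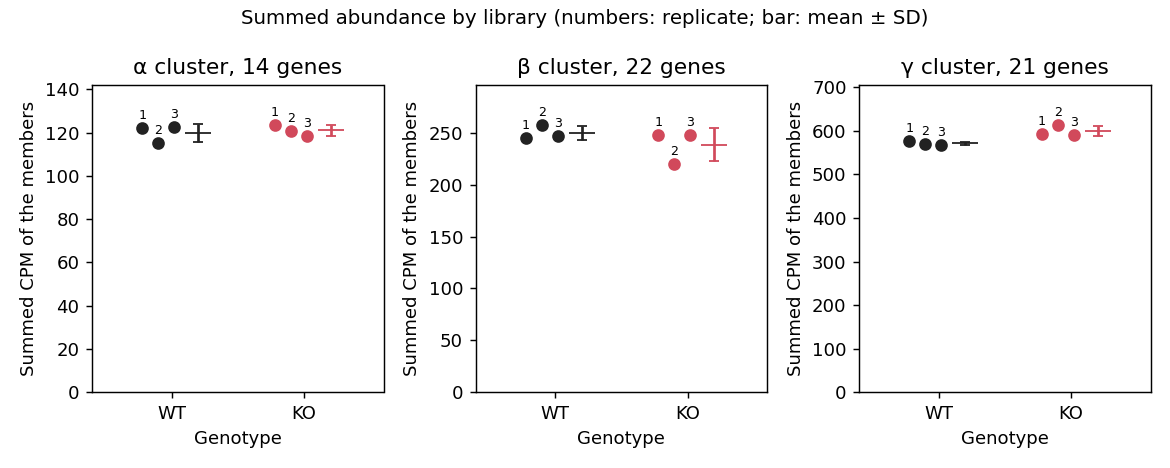
Summed CPM of the α, β and γ members in each library, with the group mean and SD (n = 3). The KO sums of the γ cluster lie above the WT sums, from 591.4 to 613.3 against 567.7 to 576.1, and KO library 2 is the low point of the β cluster at 220.04.

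GC content moved with these differences over the 57 members and between the β and γ clusters, but the α cluster did not follow. The longest first exon of each member had a median GC content of 46.0% in β members, 51.7% in γ members and 53.0% in α members. For genes other than members the longest whole transcript was used, and the median over all genes tested was 48.6%. The correlation over all genes and the GC correction therefore mix these unlike measures. The Spearman correlation between GC content and log2 fold change was 0.43 over the 57 members and 0.39 over all 21237 genes tested, given as a description because genes share the libraries. Within the clusters it was −0.13 for α, 0.27 for β and 0.17 for γ members. With a correction for GC content in each library, the median log2 fold change was 0.032 in γ members, −0.029 in β members and −0.018 in α members.

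**Figure D4:**
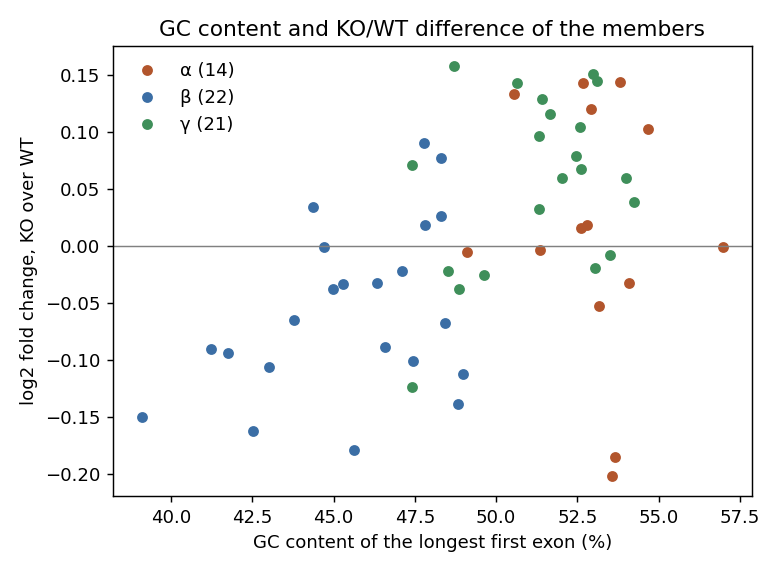
Log2 fold change of KO over WT against the GC content of the longest first exon (%), with 1 point per member, coloured by cluster. The β members lie to the left, between 39.1% and 49.0% GC, and most of them lie below 0, while most γ members lie above 0.

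Reads on the strand opposite to the members were counted separately. Transcription antisense to α promoters and variable exons is known to take part in promoter choice, and the deposited tables hold reads on that strand for each gene. In the α cluster, 7.30% ± 0.436 of the reads of both strands were on the opposite strand in WT libraries and 7.06% ± 0.441 in KO libraries (SD, n = 3 each). The γ cluster had 1.40% ± 0.0754 in WT and 1.39% ± 0.0175 in KO, and the β cluster 0.0790% ± 0.0364 and 0.1197% ± 0.0273. The β genes held 50 such counts over the 6 libraries, at most 2 per gene and library, and no β gene had a share above 0.816% in any library. In 11 of 14 α genes and 6 of 21 γ genes the share was above that value in every library.

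The opposite-strand share was highest at the 5′ end of the α cluster and toward the 3′ end of the γ cluster, ahead of the C-type genes. Averaged over the libraries it was 42.6% for Pcdha1 (35.2% to 52.6%), 28.8% for Pcdha3, 16.1% for Pcdha6, 6.83% for Pcdha9 and 0.823% for Pcdha12. The order was not smooth, since Pcdha4 (38.1%) was above Pcdha2 (23.8%) and Pcdha3, and Pcdha8 (17.9%) was above Pcdha5 (13.3%), Pcdha6 and Pcdha7 (12.2%). The opposite-strand counts did not follow the same order, with 172 for Pcdha1, 296 for Pcdha3, 279 for Pcdha6 and 120 for Pcdha9 over the 6 libraries, while the counts on the genes' own strand were 234 for Pcdha1 and 1665 for Pcdha9. The C-type α genes were lower, with 8 counts in all for Pcdhac1 and 11 for Pcdhac2. In the γ cluster it was 0.105% for Pcdhga1, 1.49% for Pcdhga9, 2.88% for Pcdhga10, 5.09% for Pcdhgb7, 3.86% for Pcdhga11 and 7.61% for Pcdhga12 (7.02% to 8.33%), and 0.522% for Pcdhgc3, the next gene. Annotated antisense exons overlap 4 α, 1 β and 8 γ members. Of the members with enough opposite-strand counts to be tested, 8 α and 3 γ genes overlap none, Pcdha1 and Pcdha3 among them.

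Opposite-strand counts did not separate the genotypes in any member tested. The fit covered 10787 genes, among them 11 α, 0 β and 8 γ members. Of these 19 members, 0 had an adjusted p under 0.05 in edgeR's quasi-likelihood test, against 0.0278% of all genes tested. At an unadjusted p under 0.05, 0 were higher (2.91% of all genes) and 0 lower (2.84%). None of the 19 members had groups without overlap, against 5.27% of all genes higher in KO and 5.43% lower. With limma-voom, 0 members passed the adjusted threshold. The DESeq2 Wald test also gave 0, but there a member without an adjusted p counts as not passing. How many of the 19 had no adjusted p was not recorded, so that 0 adds little. Pcdhga12 had the most opposite-strand counts, with 91, 71 and 88 in WT and 113, 117 and 96 in KO, and a log2 fold change of 0.32 (SE 0.159, edgeR unadjusted p = 0.0531, adjusted p = 0.890). Scaled to library size the KO values of Pcdhga12 overlapped those of WT. Pcdha3 had 42, 44 and 65 counts in WT and 49, 47 and 49 in KO (log2 fold change −0.13), and Pcdha6 had 54, 43 and 52 in WT and 47, 39 and 44 in KO (−0.26). Their values overlapped too.

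**Figure D5:**
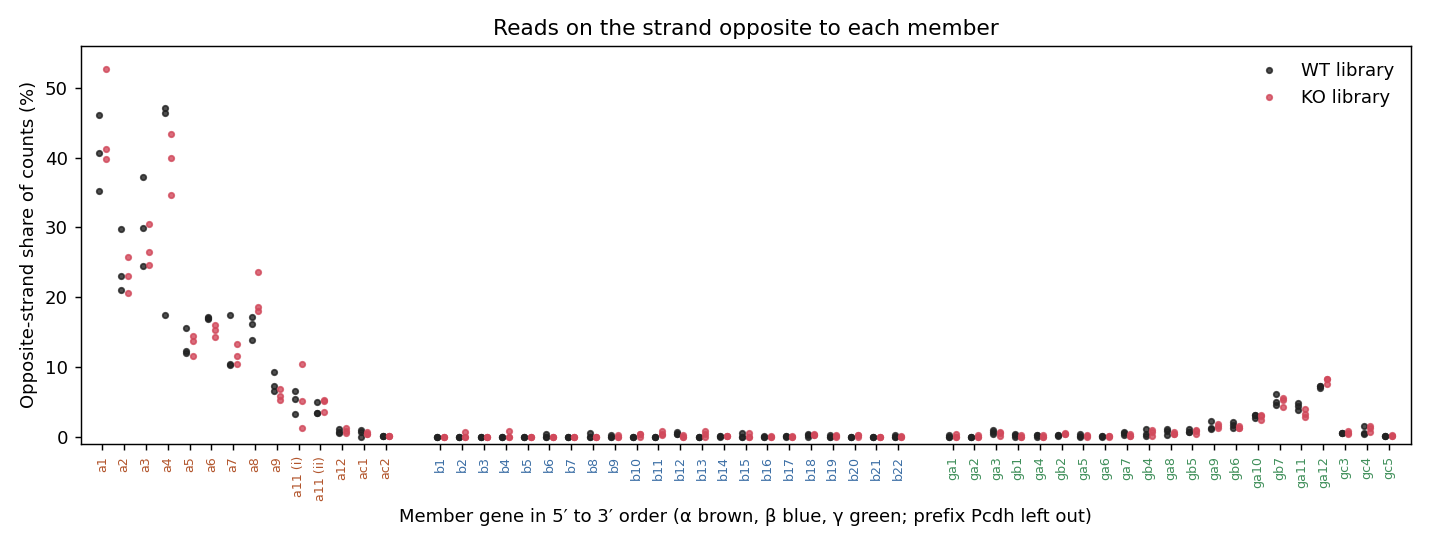
Percentage of each member's reads that fell on the opposite strand, with 1 point per library, in 5′ to 3′ order within the 3 clusters. The share goes from 42.6% at Pcdha1 to 0.823% at Pcdha12, both averaged over libraries, stays near 0 in the β cluster and reaches 7.61% at Pcdhga12.

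Other annotated genes inside the cluster spans were read from the same fit. Of the 13 that passed the filter on low counts, 0 had an adjusted p under 0.05 in edgeR's test, and 0 an unadjusted p under 0.05, beside 4.54% higher and 3.38% lower among all genes. Groups without overlap were seen in 1 gene higher and 1 lower, beside 7.46% and 6.97% of all genes. BC037039, an antisense gene whose exons cover 46.1% of the first exon of Pcdhgc3, had 0.472 CPM in WT and 0.696 CPM in KO (log2 fold change 0.55, SE 0.279, edgeR adjusted p = 0.651), with no overlap between the groups. Gm24401, a small nucleolar RNA gene in the γ span, had 2.26 CPM in WT and 1.91 CPM in KO (−0.24), also with no overlap. Pcdhgb8, annotated as a polymorphic pseudogene and so not a member, had 11.8 CPM in WT and 12.8 CPM in KO (0.12, edgeR adjusted p = 0.762). The others, all with overlapping groups, were the antisense or noncoding genes Gm37751, Gm37753, Gm10545, Gm10544 and Gm26672 and the pseudogenes Gm36858, Gm18150, Gm19035, Gm18529 and Gm20162. The gene models Gm42416, Gm37013 and Gm37388, which run from the α to the γ cluster, and Gm38182, a processed transcript in the γ span, have no unshared exonic sequence and had 0 counts.

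In a list of 29 regulators of protocadherin promoters and of chromatin (CTCF, cohesin and its loaders, DNA methylation enzymes, SMCHD1 and histone methyltransferases among them), 0 passed the adjusted threshold in edgeR's test. At an unadjusted p under 0.05, 1 was higher and 1 was lower, beside 4.54% and 3.38% of all genes tested. The median log2 fold change was −0.022, with 12 of 29 above 0 beside 50.1% of all genes. Ctcf, which encodes the insulator protein that binds these promoters, had 83.5 ± 2.598 CPM in WT and 84.4 ± 3.32 CPM in KO (mean ± SD of 3 libraries, log2 fold change 0.015). Smchd1, which encodes a chromatin protein that restrains the clusters, had 93.6 ± 4.54 CPM in WT and 90.1 ± 4.16 in KO (−0.055). Ehmt2, a histone H3 lysine 9 methyltransferase gene, had 129 ± 0.911 CPM in WT and 142 ± 3.56 in KO (0.13, edgeR adjusted p = 0.576). Tet1, which encodes a 5-methylcytosine dioxygenase, had 59.1 ± 3.14 CPM in WT and 53.5 ± 1.24 in KO (−0.15, edgeR adjusted p = 0.589).

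Partners and signalling molecules of the protocadherins, 20 genes, also gave 0 past the adjusted threshold in edgeR's test. The median log2 fold change was 0.0082, and at an unadjusted p under 0.05, 0 were higher and 1 was lower (4.54% and 3.38% of all genes). That gene was Nlgn1, which encodes the synaptic adhesion protein neuroligin-1, with 160 ± 4.31 CPM in WT and 145 ± 5.77 CPM in KO (mean ± SD of 3 libraries, log2 fold change −0.15, edgeR adjusted p = 0.576). Cyfip2, a subunit gene of the WAVE complex and the most counted of the list, had a log2 fold change of 0.0054. Among 22 other cadherin superfamily genes outside the clusters, 0 passed the adjusted threshold and the median was −0.054. At an unadjusted p under 0.05, Celsr3 (0.16) and Pcdh1 (0.13) were higher, and Pcdh7 (−0.12), Pcdh9 (−0.098) and Fat3 (−0.11) were lower, with edgeR adjusted p from 0.579 to 0.622. These are 2 higher and 3 lower of 22, beside 4.54% and 3.38% of all genes tested. Fat2, the most counted of these, had a log2 fold change of −0.013.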

How the data were processed

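Long RNA from whole brain was sequenced in 3 WT and 3 KO libraries. The authors deposited whole-number read counts per gene, not normalized, in the layout of STAR's gene counting. STAR 2.7.0f and cutadapt 1.9.1 are named in the submitters' processing notes, and the genome build and annotation are not given in the sources used here. The gene identifiers are those of GENCODE M21 (GRCm38), which supplied names and positions. Counts of the strand that held 94.64% to 94.76% of stranded gene counts were used, and the other stranded column gave the opposite-strand counts. Reads mapping to several places or to several genes on a strand were left out by that counting, which lowers counts of similar or overlapping members. Antisense overlap does not remove reads from the stranded columns.

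All genes were fitted together in R 4.3.3 with edgeR 4.0.16 (filterByExpr, TMM factors, quasi-likelihood test with genotype as the sole factor), with Benjamini-Hochberg adjustment over the genes tested and a threshold of 0.05. The method was tested on simulated data. CPM use TMM-scaled totals. Replicates of a genotype differed by more than sampling noise. Replicate numbers were taken from the labels, and the check of whether they pair libraries is in the closing section.

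The members and gene lists were chosen with earlier results of these data known. The members named are the C-type genes, Pcdhb1, the 3 highest and the lowest of each cluster by CPM, the 2 with the smallest p in each direction in each cluster, and any with an unadjusted p under 0.05. The 3 members with the most opposite-strand counts and the genes inside the cluster spans that passed the filter are also named. Pcdhga8, Pcdhgb5, Pcdhb6, Pcdhga11, Pcdha9, Pcdha5, Pcdha7, Pcdhga9, Pcdhga10, Pcdhgb7 and Ttr fall outside this rule and were chosen after their values were seen. The further lists name genes with an unadjusted p under 0.05, the most counted gene, Ctcf and Smchd1. Not every gene this rule selects is reported here. Alternatives were scaling by total counts or by the size factors of DESeq2 1.42.0, the unstranded column, a stricter filter (mean count 50) or none, limma-voom (limma 3.58.1), DESeq2's Wald test, a replicate block, and each library left out. A GC correction, alone and with the block, was added after the data were seen.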

Additional observations from a re-analysis of the deposited data

How the results depend on the processing

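No member passed the adjusted threshold under any alternative run, on either strand. In the DESeq2 Wald test, members without an adjusted p were counted as not passing. The count of all genes with an adjusted p under 0.05 (2 as reported) was 298 without a filter, 26 with DESeq2 and 4 with the replicate block, and 2 to 5 with 1 library left out, 5 without KO library 3. Members with an unadjusted p under 0.05 and higher in KO (1 as reported) numbered 2 in the unstranded column (Pcdhga8 and Pcdhgc3), 2 without a filter (Pcdhga12 and Pcdhgc3), 0 with the replicate block and GC correction together, and 0 to 2 with 1 library left out. Lower members (0 as reported) numbered 1 with total counts and 0 to 1 with 1 library left out, in both cases Pcdhb14. Members without overlap and higher in KO (3 as reported) numbered 4 to 11 with 1 library left out. Lower ones (4 as reported) numbered 2 without a filter, 2 with GC correction, 2 with the block and GC correction, and 4 to 7 with 1 library left out. Fewer libraries make overlap less likely.

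The β median ranged from −0.12 to 0.0086 with 1 library left out, the highest without KO library 2. The γ median was 0.032 with GC correction, alone or with the block. The α median, near 0 as reported, was below 0 with total counts, limma-voom, the GC correction alone or with the block, and without WT library 2. Opposite-strand genes changed (3 as reported) numbered 15 without a filter, 1 at a mean count of at least 50, 6 with limma-voom, 5 with the replicate block and 2 to 12 with 1 library left out. The causes of these shifts were not tested. Total counts moved the median of all genes to −0.0099. The replicate numbers did not pair the libraries, as the correlations of same-numbered deviations were 0.063, −0.078 and −0.078. With the replicate block the medians were 0.0049 in α, −0.068 in β and 0.067 in γ members. The unstranded column holds no count for Pcdhga10, whose exon an antisense gene covers, so 56 members were tested there. Counting error alone gives a coefficient of variation of 27.1% for Pcdhb1 and 25.5% for Pcdha4, beside 50.04% and 23.3% observed within groups.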
